A study of Mus musculus with 9 samples.

Results

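A set of 10 genes of the Notch pathway was followed in mouse skin after deletion of *Supt6*, which encodes the transcription elongation factor SPT6. They are the 4 receptors *Notch1*, *Notch2*, *Notch3* and *Notch4*, the 4 ligands *Jag1*, *Jag2*, *Dll1* and *Dll4*, and the 2 target genes *Hes1* and *Hey1*. The genes were chosen by name, with earlier results of these data known, and all 10 were found among the 17943 genes of the count table. RNA-Seq of whole skin was available for 5 control and 4 *Supt6*-KO mice, taken 10 days after the last injection, with 29627341 to 30491197 estimated counts per control mouse and 30597189 to 30967107 per *Supt6*-KO mouse. The *Supt6*-KO mice were K14-CreERT; *Supt6* fl/fl animals injected with tamoxifen in the first telogen. The controls are labelled wild type, whereas the study's methods describe them as *Supt6* fl/fl mice given corn oil, so Cre, tamoxifen and the deletion differ together between the groups and cannot be told apart. The labels name the tissue as ear and the methods as dorsal skin. The study describes the *Supt6*-KO samples as lesional and the control skin as matched, so lesions also differ together with the deletion. The K14 promoter drives Cre in keratinocytes of the epidermis and hair follicle, so other skin cells in these samples keep *Supt6*.

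*Supt6* itself was lower in every library labelled *Supt6*-KO. Its level was 74.5, 56.6, 63.6, 91.1 and 96.7 CPM (counts scaled to library size, on library sizes scaled by TMM, a method that equalises the bulk of genes between libraries) in control mice 1 to 5 and 28.6, 24.1, 21.9 and 28.4 CPM in *Supt6*-KO mice 1 to 4, so the groups did not overlap. *Supt6* (chromosome 11, 78206749 to 78245972, GRCm38) fell to 33.7% of the control mean, with a log2 fold change of -1.57 ± 0.18 (SE) and an adjusted p of 1.3e-05 by edgeR's quasi-likelihood test. With the length offsets described further on, *Supt6* was at -0.83 (adjusted p = 0.0001, edgeR). Keratinocyte genes were abundant in both groups, with *Krt10* at a mean of 14343 CPM in control and 16352 CPM in *Supt6*-KO skin. *Supt6*-KO mouse 4 stood apart from the others of its group. The mean chi-square per gene between it and another *Supt6*-KO mouse was 269 to 449, against 34.3 to 78.4 for the other pairs of *Supt6*-KO mice and 21.2 to 127 for pairs of controls. Without it, the same numbers of these 10 genes, 8 lower and 1 higher, were called, against 39.1% and 35.1% of all genes tested.

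Notch signaling passes between touching cells. A ligand of the Jagged or Delta-like family on a cell binds a receptor on its neighbour, the receptor is cut by ADAM proteases and then by γ-secretase, and the freed intracellular domain joins RBPJ and a Mastermind protein in the nucleus to turn on genes such as the Hes and Hey repressors. In the epidermis this pathway promotes the switch from basal to suprabasal keratinocytes, and it also acts in the hair follicle and in blood vessels. In bulk skin, fewer cells of a type and less RNA per cell cannot be told apart.

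In control skin the target *Hes1* and the ligand *Jag2* had the highest levels per length of transcript, and the vessel-associated genes *Dll4* and *Notch4* the lowest. *Hes1* stood at 20.5 ± 2.85 CPM per kilobase of transcript (mean ± SD, n = 5), followed by *Jag2* at 13.1 ± 1.56. Next came *Notch1* at 7.27 ± 1.99, *Dll1* at 7.19 ± 1.27, *Notch2* at 6.13 ± 1.61, *Jag1* at 5.73 ± 0.686 and *Notch3* at 4.96 ± 1.31 CPM per kilobase. Neighbours among these 5 genes overlapped between mice and were not separable. *Hey1* (1.97 ± 0.107), *Dll4* (0.788 ± 0.131) and *Notch4* (0.402 ± 0.094 CPM per kilobase) followed, each below the range of the gene before it. In *Supt6*-KO skin *Hes1* was again highest at 27.6 ± 2.55 CPM per kilobase (n = 4), but *Jag1* came next at 6.13 ± 1.43. The values for *Notch2* (3.75 ± 0.972), *Jag2* (3.63 ± 0.638) and *Notch1* (3.28 ± 0.572) overlapped, as did those for *Hey1* (1.12 ± 0.254) and *Dll1* (1.06 ± 0.239 CPM per kilobase) below *Notch3* at 1.46 ± 0.0703. *Dll4* at 0.373 ± 0.117 and *Notch4* at 0.144 ± 0.0496 CPM per kilobase were again the lowest. In the deposited TPM values of the 5 control libraries, *Hes1* and *Jag2* were likewise highest and *Dll4* and *Notch4* lowest, with *Dll1* ahead of *Notch1*.

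Of the 10 genes, 8 were lower in *Supt6*-KO skin at an adjusted p under 0.05, *Hes1* was higher with TMM scaling, and *Jag1* was not called, but the sign of *Hes1* turned with library totals and with length offsets and that of *Notch2* with length offsets, which also ended the call of *Notch1*. Calls were common across the transcriptome: 71.0% of the 16426 genes tested were called in either direction, 36.8% lower and 34.1% higher. Such shares are given for scale and are not a test of the 10 genes, which were chosen with earlier results known. Of all 10 genes, 6 fell at least 2-fold and 0 rose by as much, sizes that 24.9% and 20.9% of all genes tested reached in these directions. The groups did not overlap for 7 genes (*Notch1*, *Notch3*, *Notch4*, *Jag2*, *Dll1*, *Dll4* and *Hey1*), all lower, against 31.8% of all genes lower and 28.9% higher without overlap. The median log2 fold change was -1.12 over the 10 genes and -0.07 over all genes tested.

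All 4 receptor genes fell with TMM scaling, *Notch3* most and *Notch2* least, although with length offsets *Notch1* was not called and *Notch2* turned. *Notch1* (chromosome 2, 26457902 to 26503822) encodes the main receptor of keratinocyte differentiation. It was at 60.8, 48.6, 57.6, 85.8 and 92.2 CPM in control mice 1 to 5 and at 29.6, 36.9, 33.6 and 24.3 CPM in *Supt6*-KO mice 1 to 4. The groups did not overlap, and the *Supt6*-KO mice were at 45.0% of the control mean on average, with a log2 fold change of -1.15 ± 0.21 (SE; adjusted p = 0.00039, edgeR), but *Notch1* was at -0.11 (adjusted p = 0.52) with the length offsets described further on. *Notch2* (chromosome 3, 98013538 to 98150367), its close relative in the epidermis, was at 61.3, 43.9, 55.3, 73.3 and 87.9 CPM in control and 36.9, 51.3, 42.2 and 26.9 CPM in *Supt6*-KO mice. Here the groups overlapped, since *Supt6*-KO mouse 2 lay above control mouse 2, and the log2 fold change of -0.71 ± 0.22 (adjusted p = 0.013, edgeR) was the smallest of the receptors. With the replicate number as a block it was -0.58, with an adjusted p of 0.069, and 7 of the 10 genes were lower and 1 higher, against 35.3% and 32.0% of all genes tested.

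*Notch3* (chromosome 17, 32120820 to 32166896), the receptor of mural cells that is also made by suprabasal keratinocytes, was at 37.8, 24.5, 37.6, 46.7 and 52.2 CPM in control mice. In the *Supt6*-KO mice it was at 11.1, 12.1, 12.2 and 11.3 CPM, a spread far narrower than that of the controls. This was 29.4% of the control mean, with a log2 fold change of -1.77 ± 0.20 (adjusted p = 1.2e-05, edgeR), and -0.85 with length offsets. *Notch4* (chromosome 17, 34564286 to 34588543), a receptor of endothelial cells, was scarce, at 2.73, 2.05, 1.99, 3.38 and 3.11 CPM in control and 0.794, 1.01, 1.37 and 0.611 CPM in *Supt6*-KO mice. The groups did not overlap, and *Notch4* fell to 35.7% of the control mean (log2 fold change -1.49 ± 0.28, adjusted p = 0.00057, edgeR). With length offsets *Notch4* was at -0.73 (adjusted p = 0.029, edgeR), and with the replicate block added it was not called (-0.75, adjusted p = 0.089). Summed per kilobase, the 4 receptors went from 18.8 ± 4.94 CPM in control (n = 5) to 8.62 ± 1.63 CPM in *Supt6*-KO skin (n = 4). *Notch1* and *Notch2* held the largest shares of this sum, and the trend with transcript length described further on was not removed from it.

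The ligands split, since *Dll1*, *Jag2* and *Dll4* fell while *Jag1* was not called. Their promoters are shown because these genes of a single family differed in response while lying in the same tissue. Each is the RefSeq window of 250 bases before to 50 after a start site (GRCm38.p6), on the minus strand, at chr17:15376883-15377182 for *Dll1*, chr12:112929446-112929745 for *Jag2* and chr2:137116471-137116770 for *Jag1*. Capitals mark GC boxes, GGGCGG or its reverse complement CCGCCC, searched on both strands.
Dll1: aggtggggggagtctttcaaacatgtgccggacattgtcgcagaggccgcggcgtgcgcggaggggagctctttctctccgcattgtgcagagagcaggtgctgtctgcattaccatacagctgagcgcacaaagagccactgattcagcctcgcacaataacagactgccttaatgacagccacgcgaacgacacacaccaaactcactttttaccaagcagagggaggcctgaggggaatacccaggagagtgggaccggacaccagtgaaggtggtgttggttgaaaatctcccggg
Jag2: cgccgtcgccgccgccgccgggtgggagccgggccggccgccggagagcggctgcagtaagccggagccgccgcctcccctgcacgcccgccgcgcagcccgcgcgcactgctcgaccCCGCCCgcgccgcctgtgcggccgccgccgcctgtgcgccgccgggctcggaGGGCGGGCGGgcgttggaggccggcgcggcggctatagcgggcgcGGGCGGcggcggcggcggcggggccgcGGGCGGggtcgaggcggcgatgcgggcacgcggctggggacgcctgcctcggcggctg
Jag1: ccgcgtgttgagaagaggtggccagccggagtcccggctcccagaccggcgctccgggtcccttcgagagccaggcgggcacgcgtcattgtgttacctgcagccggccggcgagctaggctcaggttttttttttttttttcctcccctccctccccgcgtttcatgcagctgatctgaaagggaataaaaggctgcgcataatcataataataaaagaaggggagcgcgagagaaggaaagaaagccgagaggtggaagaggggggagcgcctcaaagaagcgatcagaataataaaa
The *Jag2* window is 86% G and C and holds 5 GC boxes, some of them overlapping, whereas the *Dll1* (56.3%) and *Jag1* (55.7%) windows hold none. The median promoter in the table was 52.7% G and C. Windows were found for 8 of the 10 genes, with 9 start sites in all and none for the targets *Hes1* and *Hey1*, and 5 of the 9 held a GC box, against 35.7% of 32851 promoters. The core of the RBPJ motif, TGGGAA or its reverse complement TTCCCA on either strand, was in 0 of these 9 receptor and ligand windows and in 25.6% of all promoters, which says only that these letters are not in these windows.

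*Dll1* (chromosome 17, 15367354 to 15376932), a Delta-like ligand made by basal keratinocytes, had the largest change of the 10 genes. It was at 24.7, 21.1, 23.6, 33.2 and 26.2 CPM in control and at 4.89, 3.55, 2.84 and 3.95 CPM in *Supt6*-KO mice. The lowest control was thus several times the highest *Supt6*-KO mouse, and the mean fell to 14.8% of control (log2 fold change -2.75 ± 0.20, adjusted p = 8e-07, edgeR). Of all genes tested, 4.43% had a lower log2 fold change. *Jag2* (chromosome 12, 112907803 to 112929812), a Jagged ligand of the basal layer, was at 62.8, 56.7, 69.5, 78.1 and 68.2 CPM in control and 22.8, 15.3, 16.8 and 19.3 CPM in *Supt6*-KO mice. No mice overlapped, and *Jag2* fell to 27.7% of the control mean (log2 fold change -1.85 ± 0.15, adjusted p = 1.4e-06, edgeR).

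*Dll4* (chromosome 2, 119325784 to 119335666), the Delta-like ligand of endothelial cells, was at 2.67, 2.55, 2.66, 3.16 and 3.72 CPM in control and 1.34, 1.39, 1.97 and 0.898 CPM in *Supt6*-KO mice. All *Supt6*-KO mice were below all controls, at 47.4% of their mean (log2 fold change -1.08 ± 0.24, adjusted p = 0.0019, edgeR). *Jag1* (chromosome 2, 137081451 to 137116520), a Jagged ligand found through the epidermis and in vessels, was at 36, 26.6, 35, 33.1 and 30 CPM in control and 30.5, 46, 33 and 28.1 CPM in *Supt6*-KO mice. The groups overlapped, with *Supt6*-KO mouse 2 the highest of all 9. Its log2 fold change was 0.10 ± 0.16 (adjusted p = 0.6, edgeR), and it turned to -0.09 without *Supt6*-KO mouse 2. *Jag1* was called lower with library totals (-0.63, adjusted p = 0.0022) and higher with length offsets (0.70, adjusted p = 0.0038). The summed level of the 4 ligands went from 26.8 ± 3.15 to 11.2 ± 1.11 CPM per kilobase.

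The 2 target genes did not move alike. *Hey1* (chromosome 3, 8663359 to 8667038), a repressor best known from the vasculature, was at 4.71, 5.06, 4.51, 4.57 and 5.04 CPM in control and 2.92, 2.88, 3.25 and 1.83 CPM in *Supt6*-KO mice. All *Supt6*-KO values lay below the lowest control, and *Hey1* fell to 56.9% of the control mean (log2 fold change -0.82 ± 0.19, adjusted p = 0.0024, edgeR). *Hes1* (chromosome 16, 30065357 to 30067796), a repressor that Notch induces in suprabasal keratinocytes, was at 28.7, 30.2, 37.1, 25.9 and 28.6 CPM in control and 35.5, 44.6, 41.0 and 40.7 CPM in *Supt6*-KO mice. Control mouse 3 lay above *Supt6*-KO mouse 1, so the groups overlapped slightly. With TMM scaling *Hes1* was higher, with a log2 fold change of 0.43 ± 0.12 (adjusted p = 0.0094, edgeR), but it was -0.27 (adjusted p = 0.1) with library totals and -0.25 (adjusted p = 0.076) with length offsets.

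Because each share is formed within a mouse, the makeup of the receptors and of the ligands does not depend on how libraries were scaled, although the trend with transcript length described further on was not removed from it. The share of *Notch2* in the summed receptor level (CPM per kilobase) went from 32.7% ± 0.979 in control (SD, n = 5) to 43.0% ± 3.35 in *Supt6*-KO skin (n = 4), and that of *Notch3* from 26.4% ± 1.7 to 17.3% ± 2.89, each with an adjusted p of 0.0238 (two-sided exact permutation test, Benjamini-Hochberg over 9 comparisons). *Notch1* held 38.7% and 38.1% (exact p = 0.444) and *Notch4* 2.17% and 1.65% (exact p = 0.0476, adjusted 0.0612). Among the ligands, *Jag1* went from 21.4% ± 2.26 to 54.4% ± 8.24, with single *Supt6*-KO mice at 46.8%, 65.3%, 56% and 49.4% and controls between 18.9% and 24.4%. *Jag2* went from 48.9% ± 1.32 to 32.7% ± 6.66 and *Dll1* from 26.7% ± 1.94 to 9.52% ± 2.11, and these 3 ligands each had an adjusted p of 0.0238 by the exact permutation test. *Dll4* held 2.94% and 3.35% (exact p = 0.571). In control skin *Jag2* was thus the most abundant ligand transcript per length, and in *Supt6*-KO skin it was *Jag1*. The log2 ratio of *Hes1* to *Hey1* per kilobase went from 3.37 ± 0.223 to 4.64 ± 0.399 (adjusted p = 0.0238, exact permutation). With 5 against 4 mice the smallest p is 0.0159. Without *Supt6*-KO mouse 1, 2 or 4 the differences kept their sign for these 6 measures, with an adjusted p of 0.0536, since 5 against 3 mice cannot give a p below 0.0357.

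Scaling and transcript length moved with these differences. TMM factors were 1.2 to 1.31 in control and 0.674 to 0.91 in *Supt6*-KO libraries. Scaling by library totals in place of TMM shifted the median over all genes from -0.07 to -0.76 (log2 fold change), with 54.6% of genes then lower and 16.9% higher, and 9 of the 10 Notch genes lower and 0 higher. Relative to these medians, *Jag1* was 0.17 above with TMM and 0.13 above with library totals, and *Hes1* was 0.49 above with library totals. Genes with longer transcripts had lower fold changes in these libraries: the median log2 fold change was 1.29 for the 912 genes under 1000 bases, 0.04 for the 6715 of 2000 to 4000 bases, -0.82 for the 1300 of 6000 to 8000 bases and -1.08 for the 889 of 8000 bases or more. All 4 receptor transcripts are long, from 6591 bases for *Notch4* to 10500 for *Notch2*, against a median of 3245 bases for the genes tested. *Notch4* (-1.49 with TMM) lies in the band of 6000 to 8000 bases, where 60.5% of genes were called lower. *Notch1* (-1.15), *Notch2* (-0.71) and *Notch3* (-1.77) lie in the band of 8000 bases or more, where 67% were called lower. The part of transcript length in the receptor differences was not tested beyond the offsets given next.

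With offsets that level the fold change over length within each library, *Notch1* was at a log2 fold change of -0.11 (adjusted p = 0.52) and *Notch2* turned to 0.40 (adjusted p = 0.063), by edgeR's test. *Notch3* fell by 0.85 (adjusted p = 0.0002) and *Notch4* by 0.73 (adjusted p = 0.029) on the log2 scale. The ligand *Dll1* (3581 bases) changed little, at -2.62 (adjusted p = 8.5e-07), and *Jag2* (5106 bases) was at -1.36 (adjusted p = 3.4e-06). *Dll4* was at -0.90 (adjusted p = 0.0067) and *Hey1* at -1.01 (adjusted p = 0.00052), also still lower. *Jag1* (5612 bases) was called higher in this setting, at 0.70 (adjusted p = 0.0038), and *Hes1* (1468 bases) was not called. That is 6 of the 10 genes lower and 1 higher, where 33.7% and 34.0% of all genes were. With the replicate block added to the offsets, 5 were lower and 1 higher, against 31.7% and 31.5% of all genes. *Notch3*, *Dll1*, *Jag2*, *Dll4* and *Hey1* were thus lower at an adjusted p under 0.05 with TMM, library totals, length offsets and every other setting tried.

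Another 56 genes of the pathway, also chosen with earlier results of these data known, were grouped by role, and 54 were tested. With TMM scaling 36 were lower, 7 higher and 11 not called, with a median log2 fold change of -0.79, where 36.8% of all genes tested were lower and 34.1% higher. Without overlap between the groups, 31 were lower and 5 higher (31.8% and 28.9% of all genes). With length offsets 31 were lower and 11 higher, at a median of -0.44 (33.7% and 34.0% of all genes), and with library totals 47 were lower and 1 higher (54.6% and 16.9%).

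Both tested members of the other ligands fell, the non-canonical ligands *Dlk1* (log2 fold change -1.82) and *Dlk2* (-0.60), of which *Dlk2* was at -0.42 (adjusted p = 0.067, edgeR) without *Supt6*-KO mouse 4. *Dll3*, another Delta-like ligand, had 0 to 4 counts per library and was not tested. Of 6 genes of receptor maturation and glycosylation 5 fell, and of 12 of ubiquitination and endocytosis 10 fell, with TMM, where 36.8% of all genes tested did. The maturation genes that fell included the Fringe glycosyltransferase *Mfng* (-1.33), the maturation protease *Furin* (-1.13, and -0.52 with length offsets) and the O-fucosyltransferase *Pofut1* (-1.03, and -0.43 with length offsets). The O-glucosyltransferase *Poglut1* rose with TMM, from 33.5 ± 3.32 to 64.6 ± 7.47 CPM (log2 fold change 0.94, adjusted p = 2.5e-05, edgeR), and was at 0.24 (adjusted p = 0.071) with library totals. The ubiquitination genes that fell (with length offsets *Mib1* turned and *Numbl* went from -0.92 to 0.00, adjusted p = 0.99) were led by the ligand-activating E3 ligase *Neurl1a*, which went from 8.01 ± 0.563 to 1.43 ± 0.226 CPM (log2 fold change -2.48, adjusted p = 7.3e-07, edgeR). *Mib1*, the E3 ligase that most ligands use, was at -0.28 with TMM and turned to 0.76 with length offsets. *Itch*, a ligase that marks receptors for degradation, was at 0.31 (adjusted p = 0.018, edgeR) with TMM, -0.38 (adjusted p = 0.03) with library totals and 0.85 (adjusted p = 1.8e-05) with length offsets.

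Receptor cleavage genes moved in both directions, with 3 of 9 higher, 4 lower and a median of -0.09, where 34.1% of all genes tested were higher and 36.8% lower. Subunits of γ-secretase were found on both sides. The catalytic subunit *Psen2* (-1.04) and the scaffold *Ncstn* (-1.04) fell, and both were also lower with library totals and with length offsets. *Psenen*, a small subunit with a transcript of 708 bases, was at 56.4 ± 8.4 CPM in control and 119 ± 16.1 CPM in *Supt6*-KO skin (log2 fold change 1.08, adjusted p = 3.9e-05, edgeR), and turned to -0.35 with length offsets. The protease *Adam10*, which makes the cut outside the membrane, was at 0.55 and the subunit *Aph1b* at 0.56 with TMM, and both were slightly negative with library totals (-0.12 and -0.16, not called).

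In the nucleus, 7 of 9 genes of the activation complex fell with TMM and 0 rose, with a median log2 fold change of -1.0, against 36.8% of all genes tested lower and 34.1% higher. With length offsets *Maml3*, *Ep300*, *Kat2b* and *Snw1* turned, and *Snw1* was then called higher (0.34, adjusted p = 0.012, edgeR). *Rbpj*, the DNA-binding partner of every Notch receptor, was at 59.8, 57.2, 53.6, 62.8 and 70.3 CPM in control and 32.1, 24.7, 24.2 and 31.9 CPM in *Supt6*-KO mice. No *Supt6*-KO mouse reached the controls, and *Rbpj* fell to 46.5% of control (log2 fold change -1.11, adjusted p = 2e-05, edgeR; -0.54, adjusted p = 0.00056, with length offsets). The Mastermind co-activators were at -1.45 (*Maml1*), -1.41 (*Maml2*) and -0.78 (*Maml3*), and with length offsets at -0.86, -0.66 and 0.14. The acetyltransferase *Crebbp* had the largest change of the list, from 17.1 ± 4.75 to 2.46 ± 0.845 CPM (log2 fold change -2.79, adjusted p = 7.4e-06, edgeR; -1.67 with length offsets). Its relative *Ep300* was at -1.0 with TMM and 0.04 with length offsets. Of 10 co-repressors, 6 fell and 1 rose with TMM, with *Spen* at -2.40 (-1.17 with length offsets). With length offsets *Tle1* (0.43, adjusted p = 0.0042, edgeR) and *Tle4* (0.40, adjusted p = 0.022) were called higher, and *Tle2* and *Ctbp1* lost their calls. *Hdac1*, a deacetylase that co-repressors recruit, was at 0.39 (adjusted p = 0.044, edgeR) with TMM, -0.27 with library totals and 0.18 (adjusted p = 0.1) without *Supt6*-KO mouse 4.

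Among the other targets 1 of 6 tested genes rose and 2 fell with TMM, where 34.1% of all genes were higher and 36.8% lower. *Nrarp*, a feedback inhibitor that Notch induces, was the gene that rose. It was at 54.9, 58.4, 69.0, 58.3 and 52.4 CPM in control and 104, 86.2, 93.3 and 102 CPM in *Supt6*-KO mice. The groups did not overlap, and the log2 fold change was 0.72 (adjusted p = 0.00016, edgeR), 0.58 with length offsets and 0.03 (adjusted p = 0.86) with library totals. *Heyl*, a Hey-family repressor of mural cells, was at 2.54 ± 1.2 CPM in control and 0.568 ± 0.304 CPM in *Supt6*-KO skin (log2 fold change -2.13, adjusted p = 0.00074, edgeR). *Cdkn1a*, a cell cycle inhibitor, was at -0.58 and was called lower, while *Hey2* (-0.04) was not called. *Hes5* had at most 1 count in any library and was not tested.

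Markers of the cell types that make these genes also differed between the groups, and their part in the Notch differences was not tested. The marker lists too were chosen with earlier results of these data known. The counts and sums below are with TMM, and the counts stand beside 36.8% of all genes tested lower and 34.1% higher. Median log2 fold changes moved with the processing. With TMM, library totals and length offsets in turn, suprabasal markers were at 1.00, 0.26 and 0.33 and leukocyte markers at 0.38, -0.34 and 0.72. Fibroblast markers were at -0.75, -1.47 and -0.33 and mural markers at -0.52, -1.22 and -0.83. Endothelial (-1.22, -1.96, -1.07), basal (-1.21, -1.91, -0.98) and hair follicle medians (-3.01, -3.69, -3.21) were negative in each. Of 10 endothelial markers 9 fell, and their summed level was 134, 114, 87.9, 148 and 200 CPM in control and 62.6, 60, 66.7 and 53 CPM in *Supt6*-KO mice, without overlap. *Pecam1*, the most abundant of them, went from 39.1 to 18.5 CPM, beside the lower *Notch4*, *Dll4* and *Hey1*. Of 9 mural markers 5 fell and 1 rose, and their sum, 203 ± 43.6 CPM in control and 144 ± 32.4 CPM in *Supt6*-KO skin, overlapped. Their log2 fold changes were spread widely: *Abcc9* (-2.31), *Cspg4* (-2.14), *Pdgfrb* (-2.07), *Myh11* (-1.61) and *Acta2* (-0.52) fell and *Tagln* (0.65) rose. *Rgs5*, the most abundant, was at 72.8 and 65.5 CPM and was not called. *Notch3*, at -1.77, lay among the mural markers that fell. Of 9 fibroblast markers 5 fell and 1 rose, and their sums, 5957 ± 2948 CPM in control and 3004 ± 796 CPM in *Supt6*-KO skin, overlapped. *Col3a1*, the most abundant of them, was at 2112 and 1710 CPM and was not called.

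Of 7 basal keratinocyte markers 6 fell, at a median log2 fold change of -1.21. Their sum, 10403 ± 499 CPM in control, was 8156, 5531, 6617 and 13938 CPM in *Supt6*-KO mice 1 to 4, so *Supt6*-KO mouse 4 lay above the controls. Most of its sum was *Krt14*, at 9613 CPM in that mouse. Over the groups, *Krt14* was at a mean of 3379 CPM in control and 5355 CPM in *Supt6*-KO skin and was not called. In the same mouse *Krt5* was at 3669 and *Itga6* at 244 CPM, against control means of 4631 and 275 CPM. The other 4, *Col17a1* at 112, *Dst* at 71.3, *Itgb4* at 24.9 and *Trp63* at 203 CPM, stood against control means of 954, 575, 109 and 480 CPM, beside *Jag2* at 19.3 and *Dll1* at 3.95 CPM. Of 8 suprabasal markers 4 rose and 1 fell, with a sum of 22426 ± 825 CPM in control and of 44996, 43921, 42422 and 21870 CPM in *Supt6*-KO mice. All 10 hair follicle markers fell, from a sum of 2822 ± 413 to 458 ± 109 CPM, with *Krt15* at 2303 and 367 CPM and *Shh* at 0 counts in all 4 *Supt6*-KO libraries and 0 to 44 in controls. Of 10 leukocyte markers 5 rose and 3 fell, and their sum went from 183 ± 34.4 to 713 ± 215 CPM, of which *Lyz2* made up 92.9 and 641 CPM.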

How the data were processed

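RNA of skin from 5 control and 4 *Supt6*-KO mice was sequenced as paired reads. Per the study's methods, reads were mapped to mm10 with Bowtie2 2.3.4.3 and quantified with RSEM 1.3.1. The submitters' processing notes also name HISAT, whose role is not stated, and DESeq2. The annotation release is not given in the sources used here. The authors deposited estimated counts per gene, unnormalized, of which 9% are not whole, and all were rounded. The deposited TPM values, present for 6 libraries, served only to check the order of levels.

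Gene identifiers were matched to RefSeq genes of GRCm38.p6 (17917 of 17943), and 17866 had a transcript length in GENCODE. RSEM can split reads between near-identical genes, so counts of paralogs are less certain. Levels are CPM on TMM-scaled library sizes, and per kilobase of the longest transcript where genes are compared. A log2 fold change compares *Supt6*-KO with control.

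Groups were compared with the quasi-likelihood F-test of edgeR 4.0.16 in R 4.3.3, run on genes with at least 10 counts over the 9 mice, without covariates, with Benjamini-Hochberg adjustment over all 16426 genes and calls at an adjusted p under 0.05. Shares were compared by exact permutation over mice (scipy 1.17.1). The fits were also run on simulated counts in which few genes changed, equally in both directions, or fold changes followed transcript length. Such counts cannot show which scaling holds here, where 71.0% of genes were called. Nothing states how the mice relate, and p-values measure the spread between them. Alternatives were DESeq2 1.42.0, other scalings and filters, removal of the 50 most abundant genes, length offsets, the replicate number as a block and leaving out each mouse.

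The 10 genes, the 7 lists of other pathway genes and the 7 marker lists were chosen with earlier results of these data known. Named were the 10 genes, *Supt6*, the called gene with the largest change in each direction of each pathway list reaching a group mean of 1 CPM, *Rbpj* and *Maml1* to *Maml3*, the 2 genes that varied most alike with each of the 10, and the most abundant marker of each list with any at 0. *Dlk2*, *Dll3*, *Furin*, *Pofut1*, *Mib1*, *Numbl*, *Ncstn*, *Adam10*, *Aph1b*, *Ep300*, *Kat2b*, *Snw1*, *Spen*, *Tle1*, *Tle2*, *Tle4*, *Ctbp1*, *Cdkn1a*, *Hey2*, *Hes5* and the mural and basal keratinocyte markers other than *Rgs5* and *Krt14* were named after their values were seen. A few genes of these lists are counted but not reported here by name.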

Additional observations from a re-analysis of the deposited data

Results flagged for a closer look

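Of 58 groups of 4 or 5 values examined, 4 held a mouse far from the rest of its group, against 2.9 that chance alone would give. The summed suprabasal keratinocyte markers of *Supt6*-KO mouse 4 were 21870 CPM, against a median of 43172 CPM in its group. The summed basal keratinocyte markers of control mouse 4 were 11283 CPM (group median 10255). The share of *Notch4* among the receptors in *Supt6*-KO mouse 3 was 2.24% (group median 1.47%). The log2 ratio of *Hes1* to *Hey1* in control mouse 3 was 3.76 (group median 3.3).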

How the results depend on the processing

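The calls of *Notch1*, *Notch2*, *Jag1* and *Hes1* changed with the scaling or the length offsets, and the cause was not tested. With library totals 2771 genes were higher (5608 with TMM), so higher genes were 23.6% of the calls in place of 48.1%, 0 of the 10 Notch genes and 1 of the other pathway genes were higher, *Jag1* was at -0.63 and *Hes1* at -0.27. With length offsets 11 other pathway genes were higher, *Notch2* was at 0.40 and *Hes1* at -0.25. With the replicate block and length offsets together 5 of the 10 genes were lower (31.7% of all genes), *Notch4* was not called (-0.75, adjusted p = 0.089, edgeR), *Notch2* was at 0.40 and *Hes1* at -0.22. DESeq2 called 5908 genes higher and 5814 lower.

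Replicate numbers did not pair the mice: the 4 same-number correlations of deviations ran from -0.0177 to 0.235 (mean 0.122), against a mean of -0.0232 for the other 16 pairs, and 1 *Supt6*-KO mouse correlated best with its own number. The block gave 7 of the 10 genes lower and 1 higher. Leaving out each mouse in turn gave 8 lower and 1 higher every time (34.7% to 39.1% and 32.5% to 35.1% of all genes), with *Jag1* between -0.09 and 0.18, the number of the 9 comparisons of shares and of the *Hes1* to *Hey1* ratio that passed between 0 and 7, and the difference in the *Dll4* share between -0.147 and 0.732 percentage points. *Dll4* and *Notch4*, at 0.611 to 3.72 CPM, rest on the fewest counts of the 10 genes.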

Other observations

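Deviations from the group means over the 9 mice, on the log2 CPM scale, showed which of the 10 genes varied alike within groups. These are descriptions over 9 libraries that share depth and scaling, and the trend with transcript length was not removed from them. The nearest genes below are the highest of 13563 correlations over 9 mice, and co-regulation was not tested. Among the 45 pairs, *Notch1* and *Notch2* had the highest correlation (r = 0.96), followed by the vessel-associated *Notch4* and *Dll4* (0.89), *Notch1* and *Notch3* (0.85) and the basal ligands *Jag2* and *Dll1* (0.84). The lowest were *Dll1* with *Hes1* (-0.62) and *Jag2* with *Hes1* (-0.51). Among 13563 genes with a mean of at least 1 CPM, *Mtor* was nearest to both *Notch1* (0.98) and *Notch2* (0.99), with *Ahnak* (0.98) and *Dock9* (0.98) after it. *Wdr7* and *Celsr1* (both 0.98) were nearest to *Notch3*, and *Pikfyve* (0.98) and *Nxpe4* (0.96) to *Notch4*. For the ligands, the nearest were *Spink5* and *Slmap* (both 0.92) to *Jag1*, *Sema4a* (0.98) and *Gtf2ird1* (0.97) to *Jag2*, *Atp9b* and *Zzz3* (both 0.96) to *Dll1*, and *Cdan1* (0.99) and *Slc44a3* (0.98) to *Dll4*. *Cfap300* (0.97) and *Ptgr2* (0.95) were nearest to *Hes1*, and *Tmem106b* (0.98) and *Sectm1b* (0.97) to *Hey1*. *Jag1* thus had the lowest best match of the 10 genes.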
